A study of Mus musculus with 28 samples.

Results

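The genes of the urea cycle and of hepatic ammonia handling were followed in the livers of Sirt6 heterozygous and wild type mice given the PPARα agonist WY-14643 or its vehicle. The set holds 10 genes, Nags, Cps1, Otc, Ass1, Asl, Arg1, Slc25a15, Slc25a13, Gls2 and Glud1. They were chosen by symbol, for their role in the pathway, but with earlier results of these data known. Counts of these genes set beside the shares of all tested genes are therefore descriptive. Each of the 10 has a row among the 23393 symbols counted in every library. All 10 were among the 12607 genes with enough reads to be tested.

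The urea cycle turns ammonia, which is toxic, into urea for excretion, and the liver is the organ that runs it in full. Ammonia released in mitochondria by glutaminase and glutamate dehydrogenase is joined to bicarbonate by carbamoyl phosphate synthetase, an enzyme that works only when its activator N-acetylglutamate is bound. Ornithine and citrulline cross the mitochondrial membrane on a carrier, and the cytosolic enzymes add a nitrogen from aspartate and split arginine into urea and ornithine. The pathway is most active in hepatocytes around the portal vein, while hepatocytes around the central vein take up remaining ammonia as glutamine.

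Whole livers came from 129svj mice aged 11 to 13 months, with 7 animals and 7 libraries in each of 4 groups. HZ WY animals were heterozygous for Sirt6 and received WY-14643 (WY) at 50 mg/kg by gavage in 0.5% carboxymethylcellulose (CMC). WT WY animals were wild type and received the same agonist, HZ vehicle animals were heterozygous and received 0.5% CMC alone, and WT vehicle animals were wild type and received 0.5% CMC alone. All livers were taken 12 h after gavage. Sirt6 encodes a nuclear deacylase of histones, and PPARα is the nuclear receptor through which WY raises genes of fatty acid oxidation. The sources used here do not give the sex of the animals or the kind of Sirt6 allele. In every library the Y-linked gene Ddx3y was at 88.92 CPM or more and Xist at 0.8885 CPM or less, as in male livers. The labels say no more of the origin of the replicates than an animal number each, and the p-values measure the spread between these animals.

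Gene counts came to 15795201 to 20020078 per library. Sirt6 had 23 to 42 reads in HZ WY and 38 to 79 in WT WY livers, and 15 to 28 in HZ vehicle and 32 to 64 in WT vehicle livers. It was lower in HZ under WY (log2 fold change -1.04 ± 0.16 SE, adjusted p = 0.00721) and under vehicle (-0.97 ± 0.17, adjusted p = 0.00696), and in CPM the HZ and WT libraries overlapped under WY and not under vehicle. A set of 5 HZ libraries (animals 14, 15 and 21 under WY, 30 and 38 under vehicle) stood apart from the others on the second principal component, which held 9.77% of the variance, and calls on the 10 genes that change without them are given. Of all that the counter tallied, the share in no annotated gene was 6.55 to 7.82% in HZ WY and 6.35 to 7.31% in WT WY, against 7.85 to 9.08% in HZ vehicle and 8.33 to 8.66% in WT vehicle livers. Vehicle and WY libraries were deposited in separate tables of raw counts, and a difference in handling between the tables cannot be told apart from the treatment. Levels are in CPM, read counts scaled for library size by TMM. Changes are log2 fold changes ± SE from 1 fit of all 28 libraries, and a gene passed when its p, adjusted over the 12607 genes, was below 0.05.

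Under WY, 9 of the 10 genes were lower in HZ livers and 9 of 10 in WT livers, and 0 were higher. In both genotypes the exception was Nags, the synthase of the activator. Among all tested genes, 26.4% were lower and 29.3% higher under WY in HZ livers, and 26.7% were lower and 27.4% higher in WT livers. The median log2 fold change of the 10 genes was -0.64 in HZ and -0.62 in WT livers, beside 0.011 in HZ and -0.017 in WT livers for all genes tested. One of the 9, Ass1, was counted with so few reads that its value cannot be read as a level. Without it 8 of 9 genes were lower in each genotype, with medians of -0.50 in HZ and -0.59 in WT livers. For 5 genes in HZ livers (Cps1, Otc, Asl, Slc25a15 and Gls2) every WY library lay under every vehicle library, as it did for 9.89% of all tested genes. In WT livers this held for 6 genes, the same 5 and Glud1, beside 12.1% of all tested genes. These are whole-liver libraries, in which fewer cells of a type and less RNA per cell cannot be told apart.

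**Figure D1:**
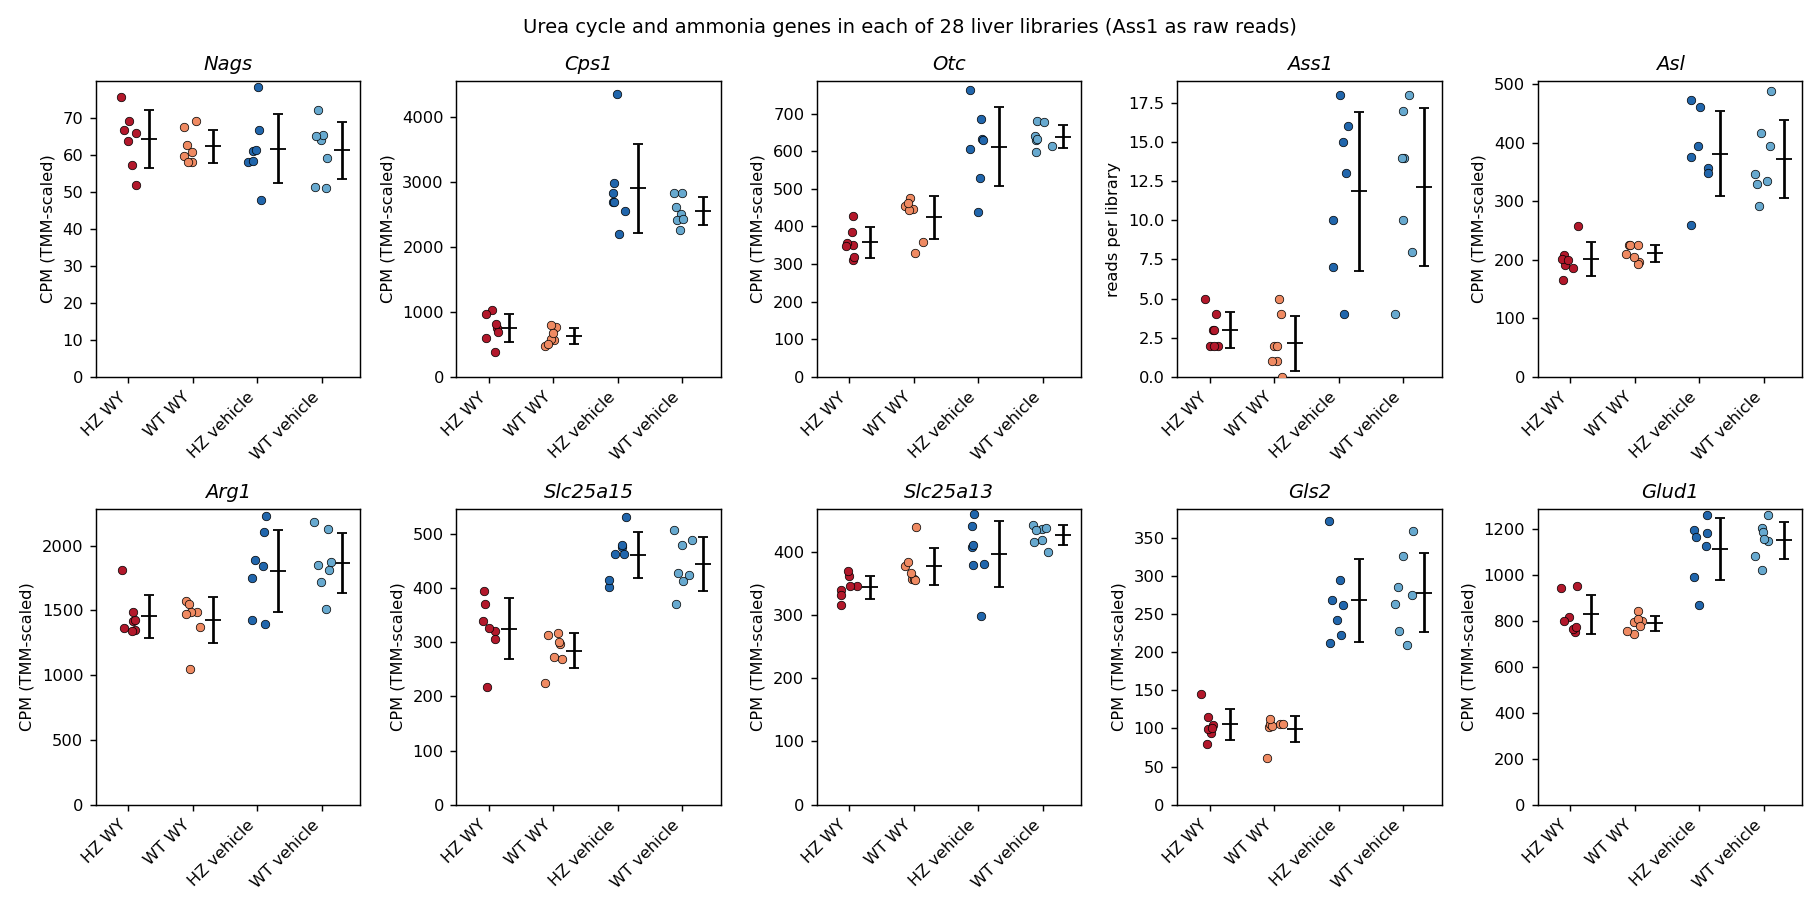
Level of each of the 10 genes in the 28 libraries, with CPM on the vertical axes (raw reads for Ass1) and a point per library; bars beside the points give the mean and SD of 7 animals. Cps1, Gls2 and Asl lie lower in both WY groups than in both vehicle groups, while the 4 groups of Nags lie over each other.

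The enzymes that release and capture ammonia in mitochondria included Cps1 and Gls2, which had the largest changes among the 9 well-counted genes. Gls2, the liver glutaminase that frees ammonia from glutamine (chr10:128194457-128210004, GRCm38), had a lowest, median and highest level of 79.48, 101.3 and 145 CPM in HZ WY livers, against 212.3, 262.6 and 373.3 CPM in HZ vehicle livers. In WT livers the values were 60.64, 105.8 and 112.6 CPM under WY, against 209.3, 274.9 and 359.3 CPM under vehicle. The WY and vehicle groups did not overlap in either genotype. The log2 fold change was -1.35 ± 0.14 in HZ (adjusted p = 9.44e-09) and -1.48 ± 0.14 in WT livers (adjusted p = 2.44e-09), which left 39.3% of the vehicle level in HZ and 35.7% in WT livers. Over 97 exon bases Gls2 overlaps Spryd4 on the opposite strand, and since the strand setting of the counting is not known, reads there cannot be assigned with certainty.

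Glud1, glutamate dehydrogenase, which frees ammonia from glutamate (chr14:34310727-34345265), had 750, 798.7 and 951.3 CPM as lowest, median and highest level in HZ WY livers, against 866.9, 1164 and 1258 CPM in HZ vehicle livers. WT livers had 740.8, 794.4 and 841.9 CPM under WY, against 1018, 1156 and 1260 CPM under vehicle. The groups overlapped in HZ livers and were apart in WT livers. Glud1 changed by -0.42 ± 0.073 on the log2 scale in HZ (adjusted p = 1.55e-05) and -0.55 ± 0.073 in WT livers (adjusted p = 4.09e-07). Of all stretches of 50 bases in the Glud1 transcript, 8.17% also occur elsewhere in the transcriptome, in its copies Glud-ps and Gm43444, and the counting could have split or dropped reads from them.

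Cps1, carbamoyl phosphate synthetase, the entry enzyme of the cycle and one of the most abundant proteins of liver mitochondria (chr1:67123026-67231259), lost the most reads of the 10. Its lowest, median and highest levels were 379.6, 748.4 and 1024 CPM in HZ WY livers, against 2194, 2693 and 4350 CPM in HZ vehicle livers. In WT livers they were 474.5, 579.2 and 802.3 CPM under WY, against 2257, 2507 and 2834 CPM under vehicle. The highest WY library of either genotype was below the lowest vehicle library of either. Mean levels were 749 ± 220 CPM in HZ WY and 626 ± 126 CPM in WT WY, and 2900 ± 686 CPM in HZ vehicle and 2550 ± 215 CPM in WT vehicle livers (SD, n = 7 each). The log2 fold change was -1.95 ± 0.17 in HZ (adjusted p = 2.83e-10) and -2.03 ± 0.17 in WT livers (adjusted p = 2.32e-10), which left 25.9% of the vehicle level in HZ and 24.5% in WT livers.

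Of the 23393 symbols, Cps1 ranked 8 by mean CPM lost in both genotypes, with a WY minus vehicle difference of -2150 CPM in HZ and -1930 CPM in WT livers. The 10 genes together stood at 4430 ± 533 CPM in HZ WY and 4300 ± 338 CPM in WT WY livers, against 7990 ± 1220 CPM in HZ vehicle and 7790 ± 460 CPM in WT vehicle livers (SD, n = 7 each). Cps1 made up 60.3% of the summed loss in HZ and 55.2% in WT livers.

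Nags, N-acetylglutamate synthase, makes the activator that Cps1 needs (chr11:102145513-102149477). It had 51.86, 65.86 and 75.7 CPM as lowest, median and highest level in HZ WY livers, against 47.75, 60.88 and 78.38 CPM in HZ vehicle livers. The WT values were 57.92, 60.86 and 69.23 CPM under WY, against 51.15, 64 and 72.01 CPM under vehicle. In both genotypes the WY range lay within the vehicle range. The log2 fold change was 0.062 ± 0.090 in HZ livers, with a 95% interval from -0.12 to 0.25 (adjusted p = 0.584), and 0.026 ± 0.090 in WT livers, with an interval from -0.16 to 0.21 (adjusted p = 0.83). Over 443 exon bases Nags overlaps the antisense gene Gm11586, and without strand the reads of both cannot be told apart there.

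Otc, ornithine transcarbamylase, joins carbamoyl phosphate to ornithine to give citrulline and lies on the X chromosome (chrX:10252305-10321024). It had 312.1, 351.4 and 429.1 CPM as lowest, median and highest level in HZ WY livers, against 438.2, 629.9 and 764.3 CPM in HZ vehicle livers. WT livers had 329.2, 446.1 and 474.9 CPM under WY, against 597.8, 631.5 and 680.9 CPM under vehicle. In both genotypes the WY libraries were all below the vehicle libraries, in HZ by a narrow margin. Otc changed by -0.78 ± 0.096 on the log2 scale in HZ (adjusted p = 9.31e-08) and -0.59 ± 0.096 in WT livers (adjusted p = 7.36e-06).

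Slc25a15, the mitochondrial carrier that exchanges ornithine for citrulline (chr8:22375551-22398597), had 217.2, 327.4 and 396.1 CPM as lowest, median and highest level in HZ WY livers, against 401.9, 463.5 and 531.8 CPM in HZ vehicle livers. In WT livers it had 225.3, 297.1 and 316.6 CPM under WY, against 370.5, 428.6 and 507.9 CPM under vehicle. The groups did not overlap in either genotype. The log2 fold change was -0.50 ± 0.098 in HZ (adjusted p = 7.83e-05) and -0.64 ± 0.099 in WT livers (adjusted p = 3.11e-06).

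Slc25a13, citrin, brings aspartate out of mitochondria for the cytosolic steps (chr6:6041218-6217173), and it had the smallest change among the genes that passed. It had 315, 344.9 and 369.9 CPM as lowest, median and highest level in HZ WY livers, against 297.9, 407.8 and 459.8 CPM in HZ vehicle livers. In WT livers it had 355.7, 366.8 and 438.3 CPM under WY, against 400, 433.8 and 442.2 CPM under vehicle. WY and vehicle libraries overlapped in both genotypes. Slc25a13 changed by -0.21 ± 0.068 on the log2 scale in HZ (adjusted p = 0.0116) and -0.18 ± 0.068 in WT livers (adjusted p = 0.0276). The HZ call was lost when only the HZ libraries were fitted (-0.18, adjusted p = 0.0562). The WT call was lost, at values close to that of the full fit, without WT WY animal 19 (-0.17, adjusted p = 0.0554), 20 (-0.16, adjusted p = 0.0599) or 24 (-0.17, adjusted p = 0.0547) and with no filter on low counts (-0.17, adjusted p = 0.0595), and it was lost with a term for the vehicle animals 71 to 78 (-0.14, adjusted p = 0.109).

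Among the cytosolic enzymes, Asl, argininosuccinate lyase, which releases arginine and fumarate (chr5:130011258-130029247), had 165.5, 199 and 258.4 CPM as lowest, median and highest level in HZ WY livers, against 259.7, 376.1 and 472.2 CPM in HZ vehicle livers. WT livers had 191.9, 210 and 226 CPM under WY, against 292.2, 346 and 489 CPM under vehicle. No WY library reached the vehicle range in either genotype, and in HZ livers the highest WY library lay just below the lowest vehicle library. Asl changed by -0.92 ± 0.11 on the log2 scale in HZ (adjusted p = 7.28e-08) and -0.82 ± 0.11 in WT livers (adjusted p = 5.87e-07).

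Arg1, arginase, the last enzyme, which splits arginine into urea and ornithine (chr10:24915221-24927484), had 1337, 1414 and 1811 CPM as lowest, median and highest level in HZ WY livers, against 1394, 1839 and 2226 CPM in HZ vehicle livers. In WT livers these were 1048, 1491 and 1570 CPM under WY, against 1511, 1854 and 2185 CPM under vehicle. The groups overlapped in both genotypes. The log2 fold change was -0.31 ± 0.10 in HZ (adjusted p = 0.013) and -0.39 ± 0.10 in WT livers (adjusted p = 0.00243). In HZ livers it no longer passed without the 5 libraries that stood apart (-0.28, adjusted p = 0.0681), an alternative chosen after the data were seen, which left 8 of the 10 genes called there.

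Ass1, argininosuccinate synthase, which joins citrulline to aspartate (chr2:31470207-31520672), had 2 to 5 reads per library in HZ WY and 0 to 5 in WT WY livers, against 4 to 18 in HZ vehicle and 4 to 18 in WT vehicle livers. The other 9 genes had 824 to 83204 reads per library. Ass1 has a processed pseudogene, Gm5424 (chr10:62071123-62072362), whose 1240 bases match bases 203 to 1442 of the Ass1 transcript with 6 mismatches, an identity of 99.5%. The pair shows bases 542 to 631 of the Ass1 transcript and the matching bases 340 to 429 of Gm5424, from GENCODE M21, printed because this likeness bears on how Ass1 could be counted. Capitals mark the 2 bases that differ.
Ass1: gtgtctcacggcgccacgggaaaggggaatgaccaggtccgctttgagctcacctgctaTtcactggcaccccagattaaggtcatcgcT
Gm5424: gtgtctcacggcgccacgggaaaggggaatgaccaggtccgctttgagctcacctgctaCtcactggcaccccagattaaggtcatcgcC
Of all stretches of 50 bases in the Ass1 transcript, 55.3% occur without a mismatch in Gm5424, as do 38.9% of the stretches of 100 bases, and Gm5424 was listed at 0 in every library. Alignments that were not unique made up 35.8 to 42.6% of all that the counter tallied for a library, which need not be their share of the reads. Whether reads of Ass1 were among those alignments was not tested. The Ass1 transcript also holds 736 stretches of 50 bases and 975 of 100 bases that are not shared, so the likeness covers only part of it. On its few reads the log2 fold change of Ass1 was -1.94 ± 0.40 in HZ (adjusted p = 0.00014) and -2.38 ± 0.42 in WT livers (adjusted p = 2.45e-05), with overlap of the WY and vehicle groups in both. The gene reached the minimum of reads through the vehicle groups, so its call adds nothing to the count of lower genes.

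**Figure D2:**
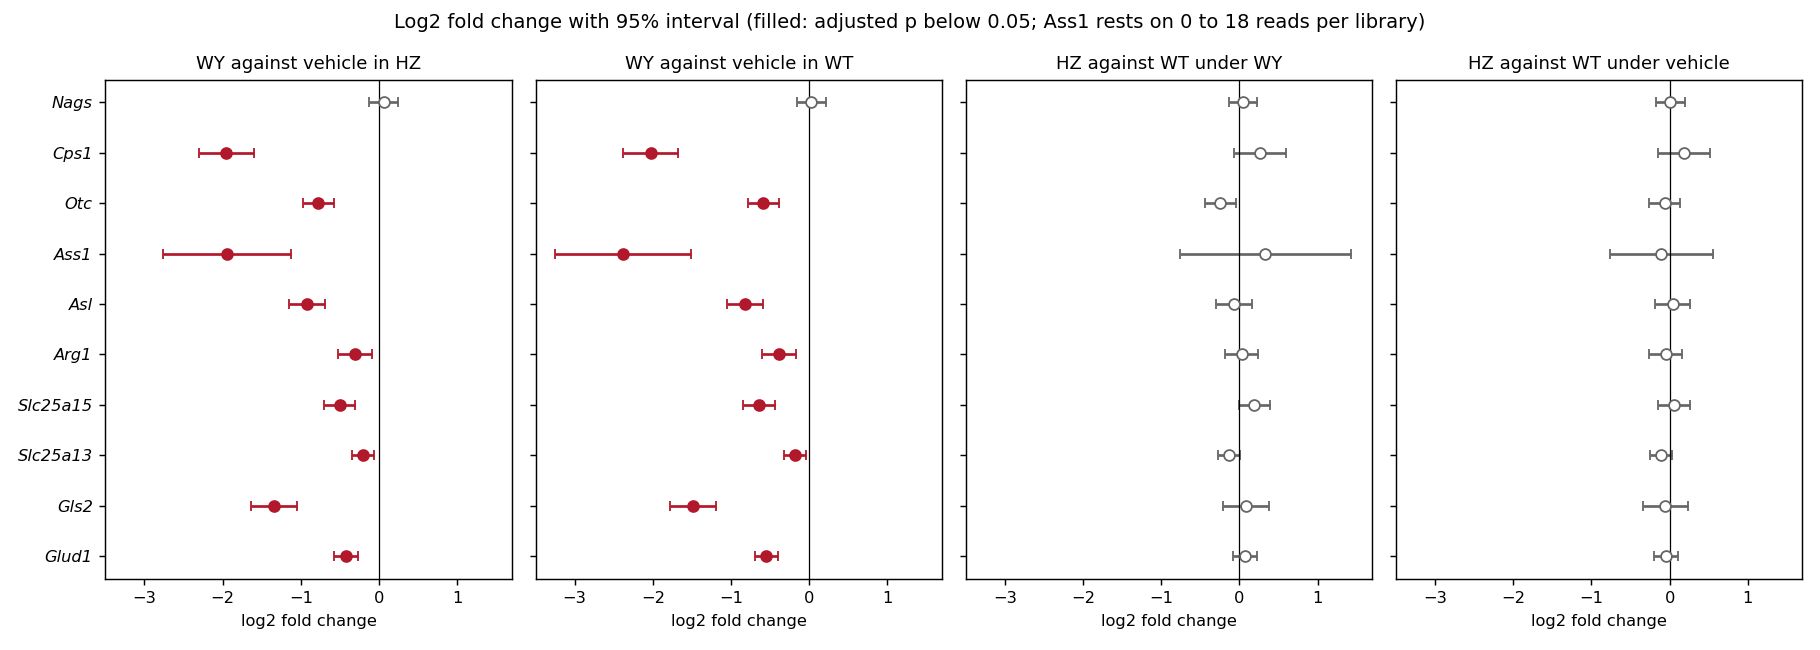
Log2 fold change of each gene (points, with 95% intervals) in 4 comparisons, filled where the adjusted p was below 0.05. Both panels of WY against vehicle show 9 of 10 genes left of 0, and in both panels of HZ against WT no gene passes.

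HZ and WT livers were compared under each treatment to ask whether these genes differ with the loss of a Sirt6 copy. Of the 10 genes, edgeR called 0 under WY, where 3.16% of all tested genes passed, and 0 under vehicle, where 2.07% passed. At an unadjusted p of 0.05 the counts were 1 of 10 under WY and 0 of 10 under vehicle, and DESeq2 called 0 in each. The smallest p was that of Otc under WY. Otc had 357 ± 40.1 CPM in HZ WY and 424 ± 56.6 CPM in WT WY livers (SD, n = 7 each). Its log2 fold change of -0.25 ± 0.096 did not pass in edgeR (adjusted p = 0.117). Limma with voom quality weights called it (-0.28, adjusted p = 0.0423).

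Slc25a15 stood at 326 ± 57 CPM in HZ WY and 285 ± 32.2 CPM in WT WY livers (SD, n = 7 each). Its log2 fold change was 0.19 ± 0.098 (adjusted p = 0.23 in edgeR), and it passed without HZ WY animal 2 (0.27, adjusted p = 0.0474). Leaving Ass1 aside, the 95% intervals of the other 9 genes lay between -0.45 and 0.60 under WY and between -0.34 and 0.52 under vehicle. For Ass1 the log2 fold change was 0.33 ± 0.53 under WY and -0.11 ± 0.32 under vehicle, on at most 18 reads a library.

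Cps1 had a log2 fold change of 0.26 ± 0.16 under WY (adjusted p = 0.331) and 0.18 ± 0.16 under vehicle (adjusted p = 0.588), and its interval reached the upper bound under both treatments. Its coefficient of variation was 29.4% in HZ WY and 20.2% in WT WY, and 23.7% in HZ vehicle and 8.43% in WT vehicle livers. Over the 9 genes the median coefficient of variation was 12.1% in HZ WY and 11.3% in WT WY, and 17.2% in HZ vehicle and 11.1% in WT vehicle livers. The wider spread of Cps1 in HZ rested on 1 library under each treatment. Leaving out the library farthest from each group's median, chosen after the data were seen, gave 20% in HZ WY (without animal 2, at 379.6 CPM) and 18.2% in WT WY (without animal 25), and 10.1% in HZ vehicle (without animal 71, at 4350 CPM) and 7.69% in WT vehicle livers (without animal 37).

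The interaction asks whether WY changed a gene by another amount in HZ than in WT livers. EdgeR called 0 of the 10 genes and 0% of all tested genes, with 1182 of 12607 at an unadjusted p under 0.05 and 0 of the 10 among them. DESeq2 called 3 and limma 1 of all genes, and each called 0 of the 10. Otc had the smallest p, with an interaction of -0.19 ± 0.14 (adjusted p = 0.689), and without Ass1 the 95% intervals of the 9 genes lay between -0.47 and 0.55. The change of Otc, larger in HZ by its point estimate, is not shown to differ between genotypes. In edgeR the same holds for every gene or list below whose WY calls or values differ between HZ and WT livers.

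Per kilobase of transcript, Arg1 had the highest level of the 10 genes in all 4 groups, at 985 ± 112 CPM per kb in HZ WY and 966 ± 121 in WT WY, and at 1220 ± 214 in HZ vehicle and 1260 ± 156 CPM per kb in WT vehicle livers (SD, n = 7 each). Under WY the level of Glud1 came next, with 244 CPM per kb in HZ and 232 in WT livers, apart from the genes above and below it. Cps1, at 135 CPM per kb in HZ and 113 in WT livers under WY, then stood in a middle group with Otc, Slc25a13, Slc25a15 and Asl, in which the ranges of neighbours overlapped. Under vehicle Cps1 stood second at 521 CPM per kb in HZ and 460 in WT livers, above Glud1 at 328 in HZ and 339 in WT and Otc at 204 in HZ and 213 in WT. The ranges of Arg1, Cps1, Glud1 and Otc were apart from each other. In HZ the margin between Glud1 (lowest 255.7) and Otc (highest 255) was narrow. Lengths are of the longest protein-coding transcript of each gene, and with other transcripts the order of the genes could differ.

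At the low end, Gls2 and Nags were neighbours with overlapping ranges under WY, Gls2 at 41 CPM per kb in HZ and 38.7 in WT and Nags at 31.7 in HZ and 30.7 in WT livers. Under vehicle their ranges were apart, with Gls2 at 104 CPM per kb in HZ and 108 in WT and Nags at 30.4 in HZ and 30.2 in WT livers.

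**Figure D3:**
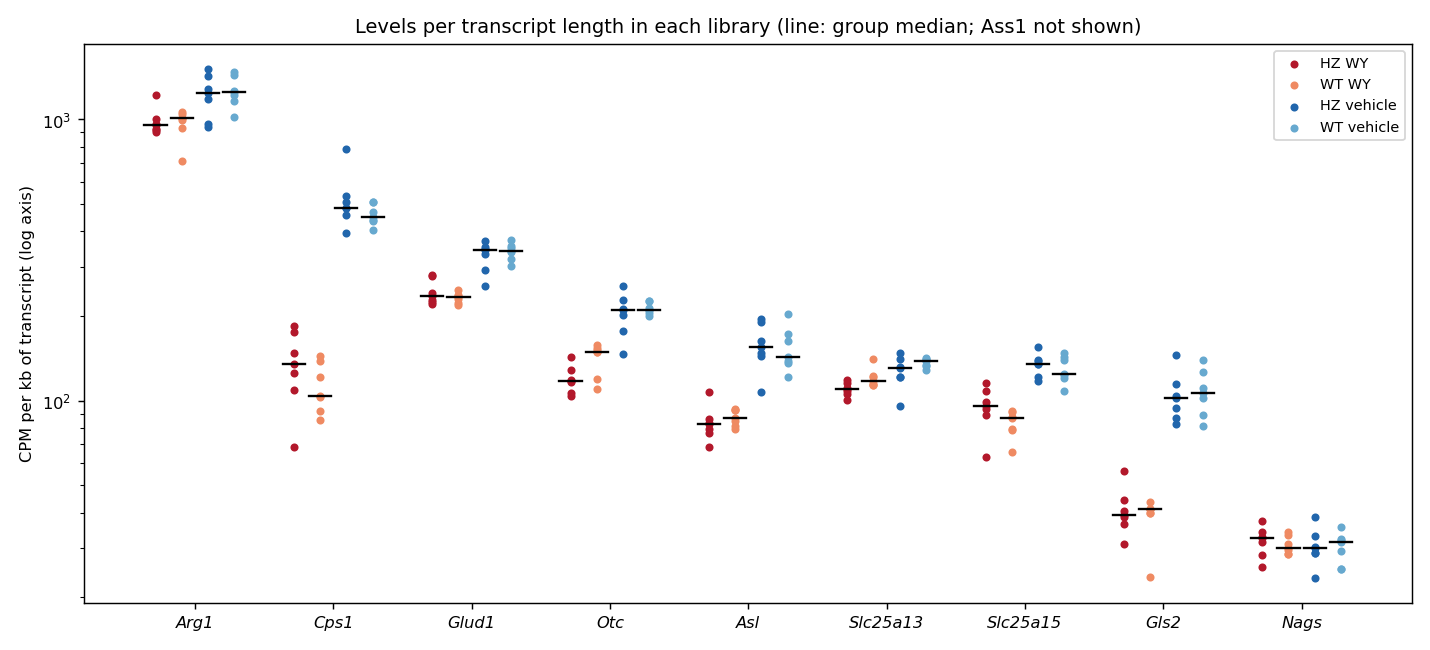
CPM per kb of transcript on a log axis for 9 genes (Ass1 left out for its few reads), with a point per library and a line at the median of 7 libraries for each of the 4 groups. Cps1 lies above Glud1 under vehicle and below it under WY.

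Promoters from RefSeq (GRCm38.p6) were read for 6 of the 10 genes, Otc, Ass1, Slc25a13, Slc25a15, Nags and Glud1. Those of Cps1, Asl, Arg1 and Gls2 were not used here. The 250 bases before the start are printed for Otc and Glud1, which were lower under WY, and for Nags, which did not pass, because these 3 differ widely in base composition. Otc is at chrX:10252055-10252304, Nags at chr11:102145263-102145512 and Glud1 at chr14:34310477-34310726, all on the plus strand. Capitals mark GC boxes (GGGCGG on either strand), and in Nags also an AGGTCA motif read on the minus strand, while the stretch of Otc holds neither.
Otc: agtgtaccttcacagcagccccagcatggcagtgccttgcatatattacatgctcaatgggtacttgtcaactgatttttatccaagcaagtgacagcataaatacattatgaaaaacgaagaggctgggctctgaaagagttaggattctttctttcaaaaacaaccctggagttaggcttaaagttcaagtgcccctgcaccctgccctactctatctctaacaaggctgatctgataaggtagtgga
Nags: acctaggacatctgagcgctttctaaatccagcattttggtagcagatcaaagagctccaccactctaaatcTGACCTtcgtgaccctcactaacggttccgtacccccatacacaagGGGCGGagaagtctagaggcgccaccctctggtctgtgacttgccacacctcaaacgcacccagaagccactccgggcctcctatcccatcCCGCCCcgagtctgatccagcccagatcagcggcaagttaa
Glud1: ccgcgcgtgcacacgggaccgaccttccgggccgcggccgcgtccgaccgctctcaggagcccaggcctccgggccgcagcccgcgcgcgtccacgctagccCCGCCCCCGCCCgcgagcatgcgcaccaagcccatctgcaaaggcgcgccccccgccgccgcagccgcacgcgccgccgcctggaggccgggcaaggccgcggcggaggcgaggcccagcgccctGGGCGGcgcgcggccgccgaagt
Otc has 43.6% G and C and 1 CpG in this stretch, Nags has 55.6% and 11 CpG, and Glud1 has 82% and 46 CpG. Motifs were searched on both strands of windows of 300 bases, 250 before and 50 after the start. GC boxes were found in Ass1, Slc25a15, Nags and Glud1, and in 35.7% of the 32851 windows of all genes. A CCAAT box was in Slc25a13 (37.4% of all windows), an E box, CACGTG, in Ass1, Slc25a13 and Slc25a15 (7.15%), TATAAA in none of the 6 genes (13.6%), and AGGTCA in Nags (16.3%). A repeat of AGGTCA after 1 base, the textbook element of PPARα with its partner RXR, whose parts also count as AGGTCA, was in none of the 6 genes and in 0.0396% of all windows. With up to 2 mismatches it was again in none of the 6 and in 3.86% of all windows.

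Genes that feed nitrogen to the cycle or handle glutamine were lower more often than higher under WY. Of 19 tested, 11 were lower and 3 higher in HZ livers and 8 were lower and 3 higher in WT livers, with medians of -0.25 in HZ and -0.29 in WT livers. The shares of all tested genes were 26.4% lower and 29.3% higher in HZ, and 26.7% lower and 27.4% higher in WT livers. Got1, the cytosolic aspartate aminotransferase, had 63.8 ± 24.5 CPM in WT WY against 237 ± 89.1 CPM in WT vehicle livers (SD, n = 7 each). Its log2 fold change was -1.87 ± 0.24 in HZ (adjusted p = 3.3e-07) and -1.89 ± 0.24 in WT livers (adjusted p = 3.33e-07). Slc7a2, a carrier of arginine and other cationic amino acids, had 305 ± 90.4 CPM in HZ WY against 1170 ± 192 CPM in HZ vehicle livers (SD, n = 7 each), and its change was -1.94 ± 0.24 in HZ and -1.74 ± 0.24 in WT livers.

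Gpt2, mitochondrial alanine aminotransferase, changed by -0.89 ± 0.11 in HZ and -0.83 ± 0.11 in WT livers. The amino acid carrier Slc38a4 changed by -0.76 ± 0.085 in HZ and -0.67 ± 0.085 in WT livers. Slc1a2, a glutamate carrier, changed by -1.81 ± 0.22 in HZ and -0.71 ± 0.22 in WT livers, and the interaction of -1.10 ± 0.31 did not pass (adjusted p = 0.325).

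Of 13 tested genes that use arginine and ornithine outside the cycle, 3 were lower and 3 higher in HZ, and 3 were lower and 4 higher in WT livers, with medians of -0.063 in HZ and -0.075 in WT livers. These shares were near those of all tested genes, of which 26.4% were lower and 29.3% higher in HZ and 26.7% were lower and 27.4% higher in WT livers. Odc1, ornithine decarboxylase of polyamine synthesis, rose by 0.82 ± 0.14 in HZ and 0.52 ± 0.14 in WT livers, and Srm, spermidine synthase, by 0.50 ± 0.10 in HZ and 0.63 ± 0.10 in WT livers. Gamt, which makes creatine from guanidinoacetate, changed by -0.71 ± 0.14 in HZ and -0.63 ± 0.14 in WT livers. Oat, ornithine aminotransferase, changed by -0.58 ± 0.13 in HZ livers (adjusted p = 0.000463), and its value in WT livers was -0.23 ± 0.13 (adjusted p = 0.14). Arg2, the mitochondrial arginase, had a value of -0.57 ± 0.27 in HZ livers (adjusted p = 0.0759) and changed by -0.95 ± 0.29 in WT livers (adjusted p = 0.00695), where it stood at 0.724 CPM under WY and 1.4 CPM under vehicle.

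Of 5 mitochondrial sirtuins and proteases that act on enzymes of the matrix, 0 were lower and 2 higher in HZ, and 0 were lower and 3 higher in WT livers, with medians of 0.10 in HZ and 0.20 in WT livers. Of all tested genes 29.3% were higher in HZ and 27.4% in WT livers, and 5 genes are too few to set these counts apart from those shares. Sirt5, a deacylase known to act on Cps1 protein, rose by 0.64 ± 0.099 in HZ (adjusted p = 2.79e-06) and 0.69 ± 0.098 in WT livers (adjusted p = 1.05e-06). Clpp, the proteolytic subunit of a matrix protease, rose by 0.63 ± 0.066 in HZ and 0.65 ± 0.066 in WT livers. Sirt3, the main mitochondrial deacetylase, had a value of 0.10 ± 0.062 in HZ livers (adjusted p = 0.175) and rose by 0.20 ± 0.062 in WT livers (adjusted p = 0.0069).

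In amino acid catabolism, 30 of 46 tested genes were lower and 5 higher in HZ, and 28 were lower and 5 higher in WT livers, with medians of -0.33 in HZ and -0.36 in WT livers. Beside them, 26.4% of all tested genes were lower and 29.3% higher in HZ, and 26.7% were lower and 27.4% higher in WT livers. Kynu, kynureninase of tryptophan breakdown, changed by -0.77 ± 0.074 in HZ and -0.95 ± 0.074 in WT livers, and Acadsb, of isoleucine breakdown, by -0.76 ± 0.077 in HZ and -0.69 ± 0.077 in WT livers. Hal, histidine ammonia lyase, which frees ammonia from histidine, changed by -0.82 ± 0.13 in HZ and -1.13 ± 0.13 in WT livers.

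Of 19 tested regulators known to act on urea cycle genes, 10 were lower and 3 higher in HZ, and 10 were lower and 2 higher in WT livers, with medians of -0.20 in HZ and -0.31 in WT livers. The shares of all tested genes were 26.4% lower and 29.3% higher in HZ, and 26.7% lower and 27.4% higher in WT livers. Ppargc1a, a coactivator of fasting genes, changed by -2.17 ± 0.26 in HZ and -2.01 ± 0.27 in WT livers. The glucocorticoid receptor gene Nr3c1 changed by -0.52 ± 0.062 in HZ and -0.47 ± 0.062 in WT livers, and Cebpb, a leucine zipper factor, by -1.21 ± 0.17 in HZ and -0.61 ± 0.17 in WT livers. The interaction called 0 of the 19 regulators, so the change of Cebpb is not shown to differ between genotypes. Sp1, a factor that binds GC boxes, changed by -0.37 ± 0.063 in HZ (adjusted p = 1.56e-05) and -0.66 ± 0.064 in WT livers (adjusted p = 1.63e-09). Between genotypes, Sp1 was higher in HZ WY than in WT WY livers, at 45.8 ± 2.61 against 37.4 ± 3.35 CPM (SD, n = 7 each), with a log2 fold change of 0.29 ± 0.064 and an edgeR adjusted p of 0.0175. This call was lost without the 5 libraries that stood apart (0.26, adjusted p = 0.103). Ppara was lower in HZ vehicle than in WT vehicle livers, at 438 ± 55 against 561 ± 80.8 CPM, with a log2 fold change of -0.36 ± 0.094 and an edgeR adjusted p of 0.0442. The Ppara call was lost without the 5 libraries (-0.37, adjusted p = 0.133), with only the vehicle groups fitted (-0.34, adjusted p = 0.184) and in some other settings, and it held in 13 of 28 fits that left out 1 library and in 5 of 10 other alternatives. The 28 fits include those without a WY library, which left the Ppara value at about -0.36 and so hardly test the call.

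**Figure D4:**
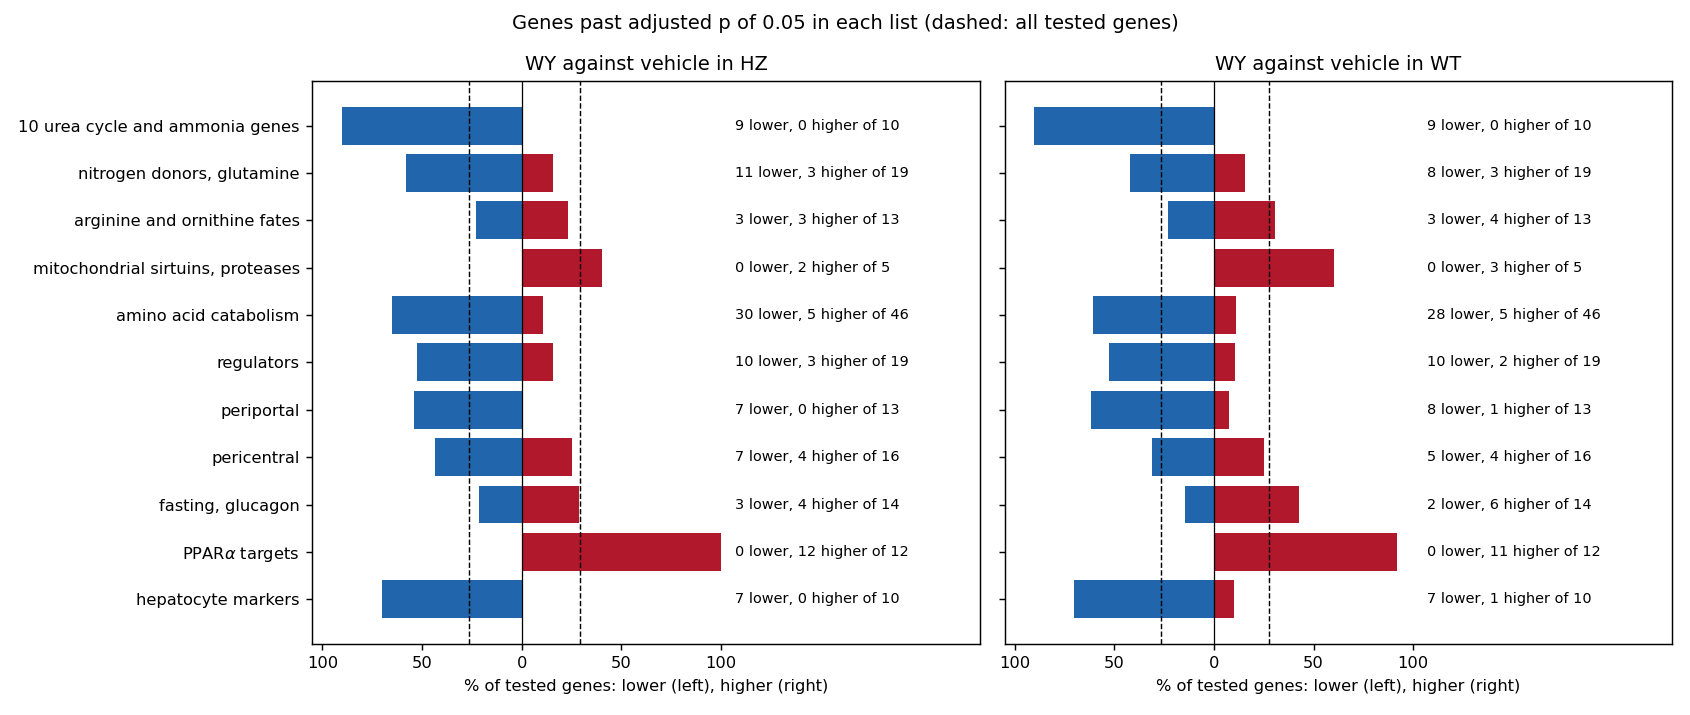
Share of the tested genes of each list that passed as lower (left of 0) or higher (right of 0) under WY against vehicle, with dashed lines at the shares of all tested genes. In both genotypes most of the 10 urea cycle and ammonia genes and most genes of amino acid catabolism lie left, and most PPARα targets lie right.

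Textbook PPARα targets were read as a check of the agonist, and 12 of 12 rose in HZ and 11 of 12 in WT livers. Pdk4, an inhibitor of pyruvate dehydrogenase, rose by 5.61 ± 0.65 in HZ and 3.89 ± 0.59 in WT livers. Markers of hepatocytes moved with the cycle genes. Of 10, 7 were lower and 0 higher in HZ, and 7 were lower and 1 higher in WT livers, with medians of -0.39 in HZ and -0.34 in WT livers. None of the 10 was at 0 in all libraries, and their summed level, mostly albumin, was 73700 to 112000 CPM in HZ WY and 93400 to 106000 CPM in WT WY, against 110000 to 143000 CPM in HZ vehicle and 116000 to 145000 CPM in WT vehicle livers. Of 13 periportal genes 7 were lower and 0 higher in HZ, and 8 were lower and 1 higher in WT livers, with medians of -0.30 in HZ and -0.33 in WT livers. Of 16 pericentral genes 7 were lower and 4 higher in HZ, and 5 were lower and 4 higher in WT livers, with medians of -0.14 in HZ and -0.082 in WT livers. Among all tested genes 26.4% were lower and 29.3% higher in HZ, and 26.7% were lower and 27.4% higher in WT livers. The pericentral counts in WT livers were near those shares. The part of these marker changes in the lower levels of the urea cycle genes was not tested.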

How the data were processed

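RNA from 28 frozen livers was extracted with Trizol and made into NEBNext Ultra libraries, per the labels' protocols. The authors deposited whole-number read counts for each gene symbol, with no scaling, split into 1 table for 14 vehicle animals and 1 for 14 WY animals. Per the submitters' processing notes, STAR 2.5.0a, HTSeq 0.6.1p1, DESeq2 1.18.1 and mm10 were used. The sources used here name neither the strand setting nor the annotation.

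The counter's 5 summary rows and the gene names turned into dates (27 rows for WY, 25 for vehicle) were left out, which left 23393 symbols. Of all that the counter tallied for a library, 6.35 to 9.08% lay in no gene and 0.413 to 0.511% in several genes. Alignments that were not unique made up 35.8 to 42.6% of this tally, which need not be a share of reads. Counts were tested in R 4.3.3 with edgeR 4.0.16, using filterByExpr by the 4 groups, TMM, and a robust quasi-likelihood fit of all 28 libraries with a mean per group (24 residual degrees of freedom). Benjamini-Hochberg adjustment ran over 12607 genes with a threshold of 0.05. The SE of a change is its size divided by the square root of its F value. The code was tested on simulated counts.

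The members and the 20 gene lists were chosen with earlier results of these data known. Of 246 list symbols 244 were found. The text names all members and Sirt6, and from each list genes among the 4 with the smallest p of those that passed in a comparison, with the value in the other genotype. Positions and transcript lengths are from GENCODE M21 on GRCm38. Alternatives were DESeq2 size factors, library totals alone, DESeq2 1.42.0, limma 3.58.1 voom with quality weights, testing without the low-count filter or with a stricter one (mean CPM 5 or more), leaving out each library, fitting 2 groups at a time, a term for vehicle animals 71 to 78, a clock gene score as covariate and, added after the data were seen, leaving out the 5 libraries that stood apart.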

Additional observations from a re-analysis of the deposited data

Results flagged for a closer look

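In groups of 7 animals, a library was marked when its gap to the nearest other on the log2 CPM scale, divided by the range of its group, was above Dixon's 95% critical value. Of 40 such tests, 4 were marked, and chance marks about 1 in 20. Arg1 was high in HZ WY animal 18, at 1811 CPM with the nearest library at 1488 CPM (gap ratio 0.646). Arg1 was low in WT WY animal 10, at 1048 CPM with the nearest at 1375 CPM (gap ratio 0.673). Gls2 was low in the same animal, at 60.64 CPM with the nearest at 102.6 CPM (gap ratio 0.85). Slc25a13 was high in WT WY animal 25, at 438.3 CPM with the nearest at 383.6 CPM (gap ratio 0.638).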

How the results depend on the processing

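With DESeq2 size factors, library totals alone, DESeq2, limma or the clock score as covariate, 9 of the 10 genes were lower under WY in each genotype. The number was 9 in HZ and 8 in WT livers without a filter on low counts and with the term for animals 71 to 78. Where Ass1 was not tested it was 8 of 9 in each with the filter at a mean CPM of 5, and 7 of 9 in HZ and 8 of 9 in WT livers with only the groups compared. Without the 5 libraries that stood apart it was 8 in HZ and 9 in WT livers. Leaving out each library gave 9 to 9 in HZ and 8 to 9 in WT livers. All these counts out of 10 include Ass1, which was called in 36 of the 36 settings that tested it in each genotype. On its few reads that call adds nothing to the count of lower genes. For HZ against WT under WY the count of 0 became 1 with limma (Otc) and was 0 to 1 with a library left out (Slc25a15), and the cause was not tested. Under vehicle, and for the interaction where it could be fitted, the count was 0. Among values of single genes, 1838 kept their direction and side of the threshold, 7 lost the call, 2 gained it, and 35 that passed in neither setting changed sign. These values include 28 fits per comparison that left out 1 library. Apart from the interaction, some of those fits lacked a library of a group not compared. Such fits hardly test a call, so the 1838 makes the calls look firmer.

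Over all tested genes the calls for HZ against WT varied more. Under WY edgeR called 398 (179 higher, 219 lower). It called 683 with DESeq2 size factors (203 higher, 480 lower), 256 with library totals alone (173 higher, 83 lower), 153 without a filter, 1088 with the clock score, 48 without the 5 libraries and 74 to 977 with a library left out. DESeq2 called 1123 and limma 968. Under vehicle edgeR called 261. It called 146 without a filter, 69 with the term for animals 71 to 78, 0 with only the groups compared, 0 without the 5 libraries and 43 to 650 with a library left out. DESeq2 called 521 and limma 729. No paired analysis was possible because the animal numbers are unique to a group. Depth limits Ass1, with at most 18 reads per library.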

Other observations

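Of 14 genes of the fasting and glucagon response, 3 were lower and 4 higher under WY in HZ, and 2 were lower and 6 higher in WT livers, beside 26.4% lower and 29.3% higher of all tested genes in HZ and 26.7% lower and 27.4% higher in WT livers. Pck1, of gluconeogenesis, had 869 ± 361 CPM in HZ WY against 2970 ± 285 CPM in HZ vehicle livers (SD, n = 7 each). Its log2 fold change was -1.77 ± 0.29 in HZ (adjusted p = 1.21e-05) and -0.89 ± 0.29 in WT livers (adjusted p = 0.00987). Of 8 clock genes of the evening phase, 7 were lower in HZ and 2 in WT livers, and 0 were higher. The interaction called 0 of these 8 and 0 of the 14 fasting genes, so no difference between genotypes is shown for either list. Nr1d2, a nuclear receptor of the clock, changed by -0.91 ± 0.15 in HZ and -0.58 ± 0.15 in WT livers. Of 5 clock genes of the opposite phase, 1 was lower and 1 higher in HZ, and 3 were lower and 0 higher in WT livers.

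Among markers of other cells, 0 of 14 macrophage genes were called in HZ and 1 was lower in WT livers, and edgeR called 0 of 5 neutrophil and monocyte genes and 0 of 2 tested T, B and NK cell genes in either genotype. Of 8 endothelial genes 1 was lower in HZ and 2 in WT livers. Of 8 stellate cell genes 2 were lower and 2 higher in HZ, and 1 was lower in WT livers. The shares of all tested genes were 26.4% lower and 29.3% higher in HZ, and 26.7% lower and 27.4% higher in WT livers. Of 4 cholangiocyte genes 2 were higher in HZ and 0 in WT livers, and of 2 erythroid genes 1 was lower in HZ and 0 in WT livers. Of 5 sex-linked genes 3 were lower in HZ and 3 in WT livers, in each the Y-linked Ddx3y, Uty and Kdm5d, which were read in every library.

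Between genotypes, the other lists with calls were PPARα targets under vehicle, where Plin2 (-1.27 ± 0.27, adjusted p = 0.0183) and Acot1 (-1.55 ± 0.38, adjusted p = 0.0345) were lower in HZ, and pericentral genes under WY, where Rnf43 (0.50 ± 0.13, adjusted p = 0.0353) and Axin2 (0.60 ± 0.16, adjusted p = 0.0441) were higher in HZ. Of the endothelial genes, Cdh5 was higher in HZ under WY (0.40 ± 0.096, adjusted p = 0.0265). All 5 calls were lost without the libraries that stood apart, with -1.17 (adjusted p = 0.167) for Plin2, -1.29 (0.205) for Acot1, 0.61 (0.0595) for Rnf43, 0.73 (0.0709) for Axin2 and 0.22 (0.253) for Cdh5. That fit had fewer HZ animals under both treatments. In it the values of Rnf43 and Axin2 were larger than in the full fit, those of Plin2 and Acot1 were smaller, and Cdh5 fell from 0.40 to 0.22. With only the vehicle groups fitted, Plin2 (-1.27, adjusted p = 0.184) and Acot1 (-1.54, adjusted p = 0.223) did not pass, and with the clock score as covariate Rnf43 (0.35, adjusted p = 0.114) and Axin2 (0.25, adjusted p = 0.241) did not. Without a filter on low counts Acot1 (adjusted p = 0.0568), Rnf43 (0.058) and Axin2 (0.0688) did not pass either. Of 28 fits that left out 1 library, Plin2 passed in 25, Acot1 in 18, Rnf43 in 21, Axin2 in 15 and Cdh5 in 24. These 28 include the fits without a library of the treatment not compared. Such fits left the value almost unchanged (Acot1 stayed at -1.55), so they hardly test the call, and the counts make the calls look firmer.

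With each gene centred on the mean of its group, the 5 of 9231 genes most like the mean profile of Nags, Cps1, Otc, Ass1, Asl and Arg1 over 28 libraries were Zfand4 (r = 0.875), Selenbp1 (r = 0.792), Etnk2 (r = 0.764), Mpv17l (r = 0.751) and Crcp (r = 0.738). Without Ass1, a choice made after the data were seen, they were Bhmt2 (r = 0.831), Slc31a1 (r = 0.767), 2010315B03Rik (r = 0.753), Sardh (r = 0.745) and Aldh1l1 (r = 0.743), and 0 genes were shared between these lists of 5. Ass1, on its few reads, spread more than the other enzymes in the profile. In WT WY livers its log2 CPM ran from -3.166 to -1.192, and that of Cps1, the widest of the others there, from 8.891 to 9.648. The first list depended on Ass1, since 0 of its 5 genes stayed among the 5 most alike without Ass1. Whether this came from the scatter of the few Ass1 reads was not tested. The r values describe libraries that share depth and handling.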
